A study of Arabidopsis thaliana with 6 samples.

Results

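The genes described here encode the core histones H2A, H2B and H3 of Arabidopsis thaliana. They were taken by name, as every gene listed as HTA, HTB or HTR with a number or under a name of histone H2A, H2B or H3. No measured value entered this rule, but the family was chosen with earlier results of these data known. The rule found 26 genes among 23542 with a test, and all 26 had reads: 12 encode H2A, 5 encode H2B and 9 encode H3. RNA was sequenced from whole Col-0 seedlings of 3 genotypes, harvested 14 days after the start of growth in long days at 22 °C. These were the mutant jmj28, the line JMJ28np5-OE and the wild type (WT), with 2 libraries each. JMJ28 belongs to the KDM3 type of JmjC proteins, which remove methyl groups from lysine 9 of histone H3. The labels do not say what np5 stands for, which promoter drives JMJ28 in that line, whether it is a single transformant, or which jmj28 allele was used.

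Histones package DNA into nucleosomes, in which 2 copies each of H2A, H2B, H3 and H4 form the core. Plant histone genes fall into those made in bulk during S phase to fill newly replicated DNA, among them canonical H2A, most H2B and H3.1, and variants that are made and exchanged outside replication, among them H2A.Z and H3.3. H2A.X takes part in DNA damage signalling, H2A.W marks heterochromatin, and CENH3 marks the centromere. H3.1 is enriched in silent chromatin, where lysine 9 methylation is found, and H3.3 in transcribed genes. Plant histone transcripts carry poly(A) tails, unlike the bulk S-phase histone transcripts of animals.

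The stretch just before the start of many plant S-phase histone genes carries short sequence elements known from studies of wheat and Arabidopsis, of which the octamer CGCGGATC and the hexamer ACGTCA are the best known. The 250 bases before the annotated start of 6 histone genes that hold these elements are shown. Of the 6, 5 were called between genotypes and 1, HTR4_1, was not, and the calls entered this choice. HTA10 and HTR1_4 also carry the octamer but were not called and are not shown. Of the 7 histone genes with the hexamer, 4 were not called. The sequences were read from the TAIR10.1 RefSeq genome, whose gene coordinates match those of the deposited tables for all 26 genes. They are written 5′ to 3′ on the strand of the gene. Capitals mark the octamer on either strand in the first 5 and the hexamer in HTB1.
HTR1_1, an H3.1 gene (chr1:2972335-2972584, minus strand): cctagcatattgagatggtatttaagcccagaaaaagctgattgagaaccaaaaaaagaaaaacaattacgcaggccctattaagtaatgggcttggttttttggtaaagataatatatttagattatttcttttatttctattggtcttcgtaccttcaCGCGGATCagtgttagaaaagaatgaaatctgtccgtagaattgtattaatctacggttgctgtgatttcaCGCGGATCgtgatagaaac
HTR1_5, an H3.1 gene (chr5:26120582-26120831, minus strand): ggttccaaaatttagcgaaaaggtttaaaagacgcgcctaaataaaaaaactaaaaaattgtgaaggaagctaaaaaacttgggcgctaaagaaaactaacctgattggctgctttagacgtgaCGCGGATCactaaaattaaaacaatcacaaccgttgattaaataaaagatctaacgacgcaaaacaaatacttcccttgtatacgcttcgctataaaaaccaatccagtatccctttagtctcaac
HTA6, an H2A.W gene (chr5:24116221-24116470, minus strand): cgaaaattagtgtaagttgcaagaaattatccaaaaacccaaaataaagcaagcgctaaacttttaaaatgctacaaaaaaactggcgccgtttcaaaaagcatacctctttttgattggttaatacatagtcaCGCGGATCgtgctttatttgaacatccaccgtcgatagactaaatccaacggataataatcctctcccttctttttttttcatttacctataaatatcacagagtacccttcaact
HTA13, a canonical H2A gene (chr3:7229140-7229389, plus strand): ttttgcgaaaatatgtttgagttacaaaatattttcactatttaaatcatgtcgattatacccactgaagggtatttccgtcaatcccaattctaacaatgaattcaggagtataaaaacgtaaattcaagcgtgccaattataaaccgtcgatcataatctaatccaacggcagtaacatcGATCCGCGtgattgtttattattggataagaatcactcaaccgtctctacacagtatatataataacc
HTR4_1, an H3.3 gene (chr4:18558946-18559195, minus strand): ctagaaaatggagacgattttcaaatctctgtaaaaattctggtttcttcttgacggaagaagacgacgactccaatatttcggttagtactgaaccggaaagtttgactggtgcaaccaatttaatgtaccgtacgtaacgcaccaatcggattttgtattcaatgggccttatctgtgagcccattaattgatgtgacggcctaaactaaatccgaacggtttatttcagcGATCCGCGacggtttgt
HTB1, an H2B gene (chr1:2412688-2412937, plus strand): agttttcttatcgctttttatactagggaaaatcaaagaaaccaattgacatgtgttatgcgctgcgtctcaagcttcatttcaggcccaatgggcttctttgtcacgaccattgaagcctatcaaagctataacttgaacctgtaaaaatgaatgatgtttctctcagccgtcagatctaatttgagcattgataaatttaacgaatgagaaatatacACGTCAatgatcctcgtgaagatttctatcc

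The deposited tables hold the higher genotype mean of each gene in each pair, in RPKM (reads divided by exon length and by the size of the library), and the authors' test of each pair of genotypes. The reads of the separate libraries were recovered from those means for the genotypes with the highest and second-highest level of a gene. Library totals ran from 10632893 to 19693228 reads, and libraries are named by depth because the means carry no replicate number. The lowest of the 3 genotype means was calculated from the deposited fold change and has no spread. For 23 of the 26 histone genes that lowest genotype was JMJ28np5-OE. JMJ28 itself, listed as B160 (AT4G21430), was 244 and 307 RPKM in the JMJ28np5-OE libraries, against 6.90 and 6.50 RPKM in the WT libraries. Its mean was 3.19 RPKM in jmj28, as calculated, so transcript of the gene was still present in the mutant.

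Most histone genes were highest in jmj28 and lowest in JMJ28np5-OE, with WT between them, although the place of jmj28 above WT rests on 1 library. Of the 24 genes with recovered jmj28 libraries, 21 lay above WT and 3 below, and 12 lay above and 12 below without the deeper jmj28 library. The mean was highest in jmj28 for 23 of 26 genes, in JMJ28np5-OE for 1 and in WT for 2, and it was lowest in JMJ28np5-OE for 23, in jmj28 for 2 and in WT for 1. In jmj28 against JMJ28np5-OE, 10 of the 26 genes were higher and 0 lower at an FDR under 0.05 in the authors' deposited table, which is 38.5% of the genes. Over all 23542 genes the table called 4.12% higher, 7.29% lower and 11.4% in either direction. The median log2 fold change was 0.35 over the 26 genes and -0.02 over all genes with a test, with 24 histone genes above 0 and 2 below, against 48.2% above and 51.8% below over all genes. At an unadjusted p under 0.05, 14 histone genes were higher and 1 was lower, HTA12, against 10.8% and 13.6% of all genes. At a higher genotype mean of at least 30 RPKM, a limit chosen after the values were seen, 10 of 21 histone genes were called higher, or 47.6%, against 8.13% of all genes at that level. Of the 10 called genes, HTA13, HTA3 and HTR1_2 overlap another listed gene, whose reads cannot be told apart from theirs without strand.

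Against WT neither genotype gave a call. In jmj28 against WT, 0 of 26 histone genes passed an FDR of 0.05 in the authors' deposited table, where 1.3% of all genes passed, 0.208% higher and 1.1% lower. At an unadjusted p under 0.05, 1 was higher and 0 were lower, against 3.07% higher and 5.52% lower over all genes. The median log2 fold change was 0.08, with 21 genes above 0 and 5 below, against 49.3% above and 50.7% below over all genes. In JMJ28np5-OE against WT, 0 of 26 passed in the authors' deposited table, where 3.55% of all genes passed, 2.87% higher and 0.684% lower. At an unadjusted p under 0.05, 10 histone genes were lower and 0 higher, a share of 38.5%, against 5.57% lower and 8.61% higher over all genes. The median log2 fold change was -0.24, with 3 genes above 0 and 23 below, against 50.6% above and 49.4% below over all genes. The 3 fold changes of a gene add up within 0.01 on the log2 scale for 99.99% of genes, so the difference between jmj28 and JMJ28np5-OE is the sum of the small steps of each from WT, and the comparisons are not independent. In whole seedlings, fewer dividing cells and less histone RNA per cell cannot be told apart.

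**Figure D1:**
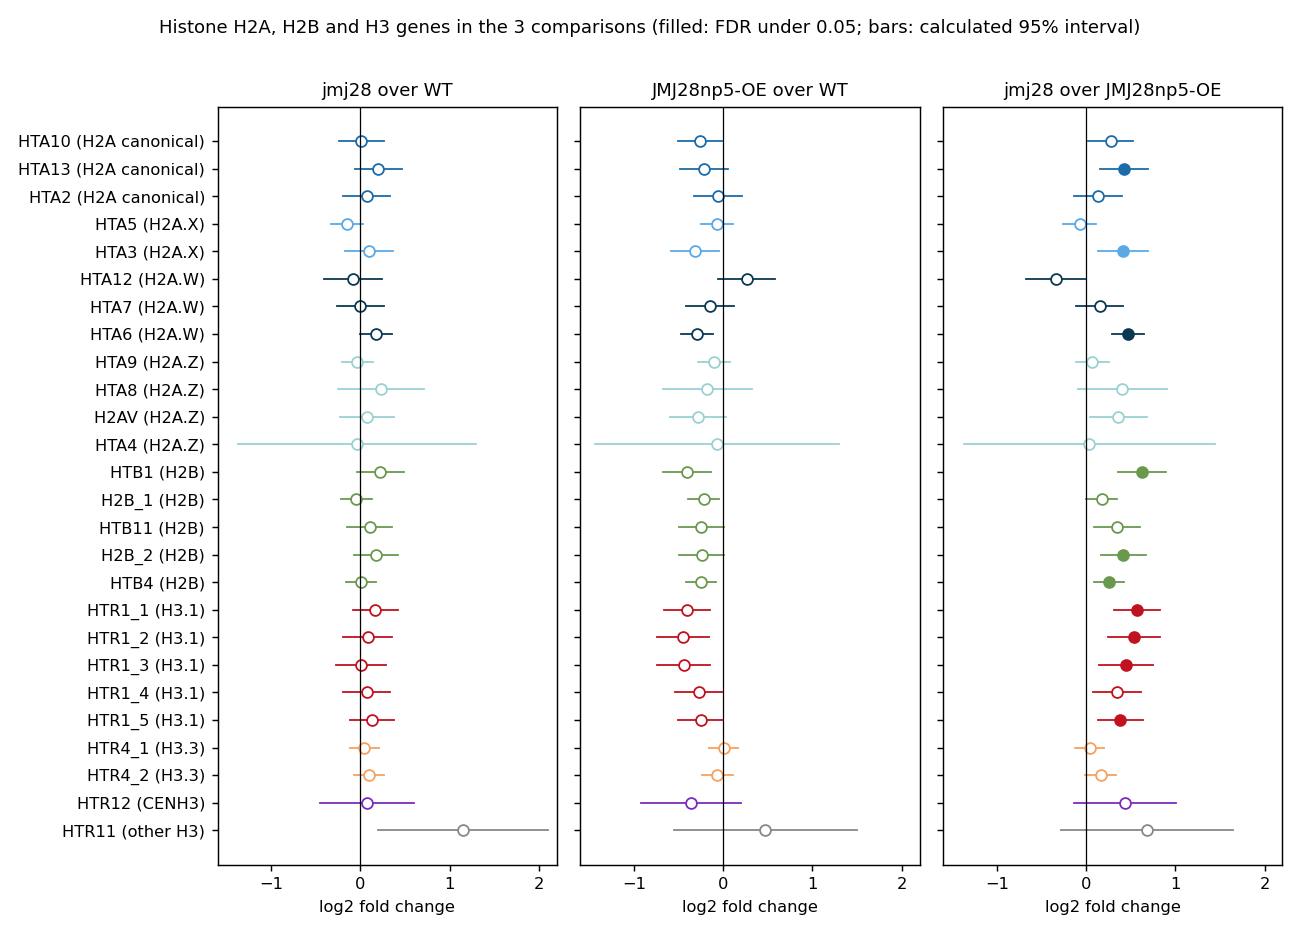
Log2 fold change of each of the 26 histone genes (rows, coloured by class) in jmj28 over WT, JMJ28np5-OE over WT and jmj28 over JMJ28np5-OE, from the authors' deposited tables. Filled points have an FDR under 0.05 and bars are 95% intervals calculated from the deposited p; the 10 filled points all lie in the third panel, to the right of 0.

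H3.1 is the replication-dependent form of H3. Its 5 genes were the class with the most calls, with 4 of 5 higher in jmj28 than in JMJ28np5-OE and a class median of 0.45 on the log2 scale. HTR1_1 (AT1G09200, chromosome 1, 2971571 to 2972334, TAIR10) had 135 and 122 RPKM in the deeper and shallower jmj28 library, a calculated mean of 83.4 RPKM in JMJ28np5-OE, and 105 and 119 RPKM in WT. Both jmj28 libraries stood above both WT libraries, and the JMJ28np5-OE mean was below all 4. The log2 fold change in jmj28 over JMJ28np5-OE was 0.57, or 1.49-fold, with an SE of 0.13 calculated from the deposited p (FDR 0.00056, from the authors' deposited table).

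HTR1_5 (AT5G65360, chromosome 5, 26119859 to 26120581) was the most abundant H3.1 gene, with 168 and 148 RPKM in jmj28, 116 RPKM as calculated in JMJ28np5-OE, and 132 and 150 RPKM in WT. The shallower WT library lay between the jmj28 libraries, so these groups overlapped. Over JMJ28np5-OE its log2 fold change was 0.38 (FDR 0.0421, from the authors' deposited table). HTR1_2 (AT3G27360) had 37.2 and 35.0 RPKM in jmj28, 24.0 RPKM as calculated in JMJ28np5-OE, and 31.5 and 35.4 RPKM in WT. Again the jmj28 and WT libraries overlapped while the JMJ28np5-OE mean stood apart, and the log2 fold change over JMJ28np5-OE was 0.53 (FDR 0.00772, from the authors' deposited table).

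HTR1_3 (AT5G10390) and HTR1_4 (AT5G10400) lie next to each other on chromosome 5 in the same orientation, with 577 bases between them. HTR1_3 had 37.1 and 30.3 RPKM in jmj28, 23.7 RPKM as calculated in JMJ28np5-OE, and 30.9 and 34.9 RPKM in WT. The log2 fold change over JMJ28np5-OE was 0.45 (FDR 0.0441, from the authors' deposited table), and it was 0.29 without the deeper jmj28 library. HTR1_4 stood higher, at 80.0 and 65.8 RPKM in jmj28, 55.1 RPKM as calculated in JMJ28np5-OE, and 66.0 and 69.9 RPKM in WT. It was the H3.1 gene without a call, with a log2 fold change of 0.35 (FDR 0.105, from the authors' deposited table).

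Against WT the same 5 genes gave no call, and all 5 lay below WT in JMJ28np5-OE. The class median there was -0.40 on the log2 scale, and HTR1_1, HTR1_2 and HTR1_3 had -0.40 (FDR 0.0721), -0.45 (FDR 0.0748) and -0.44 (FDR 0.0965), from the authors' deposited table. In jmj28 over WT their log2 fold changes ran from 0.01 to 0.17.

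H3.3, the replication-independent form, had 2 genes among those chosen by name, and they gave no call in any comparison. HTR4_1 (AT4G40040, chromosome 4, 18557149 to 18558945) was the most abundant of the 26 genes, with 218 and 219 RPKM in jmj28, 204 RPKM as calculated in JMJ28np5-OE, and 207 and 207 RPKM in WT. Its log2 fold change in jmj28 over JMJ28np5-OE was 0.04, with a calculated 95% interval of -0.13 to 0.20 (FDR 1.00, from the authors' deposited table). HTR4_2 (AT5G10980) had 183 and 169 RPKM in jmj28, 151 RPKM as calculated in JMJ28np5-OE, and 160 and 162 RPKM in WT, with a log2 fold change of 0.16 and an interval of -0.01 to 0.34 (FDR 0.356). Both upper bounds lie below the fitted values of the 5 H3.1 genes, which run from 0.35 to 0.57, while the intervals of the H3.1 genes begin between 0.08 and 0.31. The difference between H3.1 and H3.3 genes was not tested itself.

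The ratio of the summed level of the 5 H3.1 genes to that of the 2 H3.3 genes chosen by name was calculated within each library. This ratio was chosen after the values were seen. The further H3.3 locus AT4G40030 is not in the sum and would lower every ratio. It had 162 and 174 RPKM in jmj28, 158 RPKM as calculated in JMJ28np5-OE, and 157 and 165 RPKM in WT. Without that locus the ratio was 1.14 and 1.04 in the jmj28 libraries, 0.85 in JMJ28np5-OE from calculated means, and 1.00 and 1.11 in the WT libraries. The jmj28 and WT libraries overlapped, and the JMJ28np5-OE value lay below all 4, with no spread of its own. For H2B over H2A.Z the JMJ28np5-OE value of 4.251 also lay below all 4 libraries, which ran from 4.447 to 5.087. Canonical H2A over H2A.Z was 1.83 in JMJ28np5-OE, 1.822 and 2.004 in WT, and 1.955 and 2.043 in jmj28. There the JMJ28np5-OE value did not lie below the deeper WT library. The H2B loci and the canonical H2A gene RAT5 that the name rule left out are not in these sums and would raise these ratios. RAT5 had means of 36.4 RPKM in jmj28, 35.0 RPKM in JMJ28np5-OE and, as calculated, 30.3 RPKM in WT. The summed H3.1 level was 457 and 402 RPKM in jmj28, 303 RPKM in JMJ28np5-OE and 366 and 409 RPKM in WT. For the 2 H3.3 genes the sums were 400 and 388 RPKM in jmj28, 355 RPKM in JMJ28np5-OE and 366 and 369 RPKM in WT. No test was run on these ratios.

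HTR12 encodes CENH3, the H3 of centromeres, and was low, at 3.24 and 2.34 RPKM in jmj28, 1.98 RPKM as calculated in JMJ28np5-OE, and 2.83 and 2.32 RPKM in WT. Its log2 fold change of 0.43 in jmj28 over JMJ28np5-OE had a calculated interval of -0.14 to 1.00 and gave no call (FDR 0.558, from the authors' deposited table). HTR11, a further H3 gene, lies 33 bases beyond the end of HTR1_5 and in the same orientation, so that nearly all of the stretch before its start is HTR1_5. It held 21 and 25 reads in the jmj28 libraries and 10 and 15 in the JMJ28np5-OE libraries, or 2.52 and 3.45 RPKM against 1.31 and 2.29 RPKM, and its WT mean was 1.32 RPKM as calculated. It had the largest log2 fold changes of the 26 genes, 1.15 in jmj28 over WT (FDR 0.545) and 0.68 in jmj28 over JMJ28np5-OE (FDR 0.629), and neither passed in the authors' deposited table at these read numbers.

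**Figure D2:**
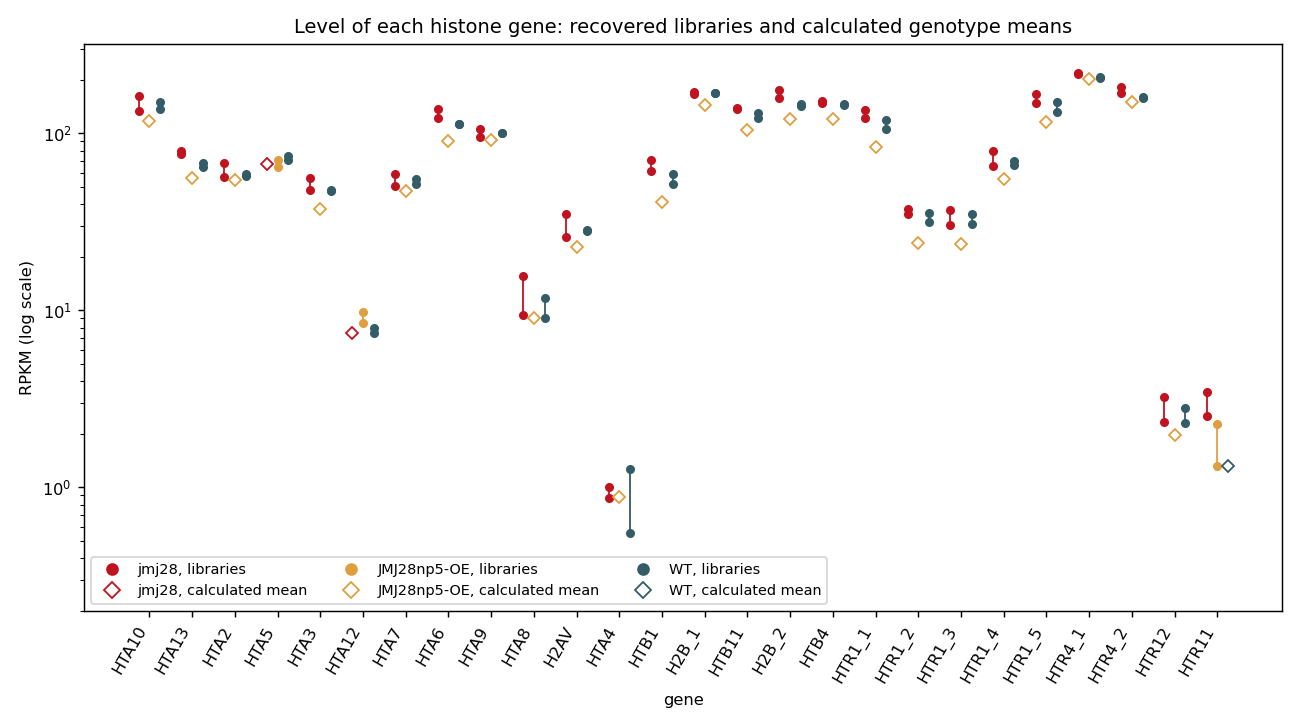
RPKM (log scale) of the 26 histone genes in each recovered library (filled circles, joined within a genotype) and the calculated mean of the lowest genotype (open diamonds) for jmj28, JMJ28np5-OE and WT. The diamond of JMJ28np5-OE is the lowest genotype mean for 23 genes, and levels span from 0.55 RPKM for HTA4 to 219 RPKM for HTR4_1.

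H2B pairs with H2A in the nucleosome. Of its 5 genes chosen by name, 3 were higher in jmj28 than in JMJ28np5-OE, with a median of 0.35 on the log2 scale. HTB1 (AT1G07790, chromosome 1, 2412938 to 2413790) had 70.3 and 61.1 RPKM in jmj28, 40.9 RPKM as calculated in JMJ28np5-OE, and 51.5 and 58.7 RPKM in WT. Both jmj28 libraries stood above both WT libraries. Its log2 fold change over JMJ28np5-OE was 0.63, or 1.54-fold, with an SE of 0.14 (FDR 0.00026, from the authors' deposited table), the largest value among the called histone genes.

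H2B_2 (AT5G22880, HTB2 in RefSeq) had 176 and 158 RPKM in jmj28, 120 RPKM as calculated in JMJ28np5-OE, and 143 and 146 RPKM in WT, with a log2 fold change over JMJ28np5-OE of 0.41 (FDR 0.0208, from the authors' deposited table). HTB4 (AT5G59910) had 152 and 148 RPKM in jmj28, 121 RPKM as calculated in JMJ28np5-OE, and 146 and 146 RPKM in WT. For HTB4 the log2 fold change over JMJ28np5-OE was only 0.25 (FDR 0.0463), and over WT it was 0.00 in jmj28 and -0.25 in JMJ28np5-OE (FDR 0.112 for the last), from the authors' deposited table. The difference between the lines at HTB4 thus lay almost wholly between JMJ28np5-OE and WT.

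The other two H2B genes gave no call. HTB11 (AT3G46030) had 139 and 138 RPKM in jmj28, 105 RPKM as calculated in JMJ28np5-OE, and 122 and 131 RPKM in WT, and its log2 fold change of 0.35 over JMJ28np5-OE had an FDR of 0.0805 in the authors' deposited table. H2B_1 (AT3G45980, HTB9 in RefSeq) had 172 and 166 RPKM in jmj28, 144 RPKM as calculated in JMJ28np5-OE, and 170 and 170 RPKM in WT. It overlaps other listed genes, and with libraries that do not mark strand their reads cannot be told apart. All 5 H2B genes chosen by name lay below WT in JMJ28np5-OE, with log2 fold changes from -0.40 to -0.22 and FDR from 0.103 to 0.559 in the authors' deposited table. H2B loci that the name rule left out are given below, and AT2G28720 among them had -0.01 and AT2G37470 -0.145. The summed level of the 5 genes was 709 and 671 RPKM in jmj28, 530 RPKM as calculated in JMJ28np5-OE, and 632 and 651 RPKM in WT.

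Canonical H2A, the bulk form, was measured by 3 genes chosen by name, of which 1 was called. A further canonical gene, RAT5, was left out by the name rule. Its log2 fold change was 0.24 in JMJ28np5-OE over WT (FDR 0.697, from the authors' deposited table), where the 3 genes lay below 0. In jmj28 over JMJ28np5-OE it was -0.01. HTA13 (AT3G20670, chromosome 3, 7229390 to 7230146) had 76.1 and 79.6 RPKM in jmj28, 55.9 RPKM as calculated in JMJ28np5-OE, and 64.5 and 67.9 RPKM in WT. Both jmj28 libraries stood above both WT libraries, and the log2 fold change over JMJ28np5-OE was 0.42 (FDR 0.0341, from the authors' deposited table). HTA10 was the most abundant of the class, with 163 and 133 RPKM in jmj28, 118 RPKM as calculated in JMJ28np5-OE, and 137 and 150 RPKM in WT. Its jmj28 libraries enclosed the WT libraries, and its log2 fold change over JMJ28np5-OE of 0.27 gave no call (FDR 0.230). HTA2 ran from 54.6 RPKM as calculated in JMJ28np5-OE to 67.8 RPKM in the deeper jmj28 library and gave no call.

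The heterochromatic variant H2A.W was measured by HTA6, HTA7 and HTA12. HTA6 (AT5G59870, chromosome 5, 24115354 to 24116220) had 138 and 122 RPKM in jmj28, 90.3 RPKM as calculated in JMJ28np5-OE, and 112 and 113 RPKM in WT. Both jmj28 libraries stood above both WT libraries. The log2 fold change over JMJ28np5-OE was 0.47 with an SE of 0.09, and its FDR of 2.49e-05 was the smallest of the 26 genes in the authors' deposited table. Set against WT, HTA6 had a log2 fold change of 0.18 in the mutant (FDR 0.848) and of -0.30 in JMJ28np5-OE, where the FDR of 0.0546 just missed the threshold.

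The other H2A.W genes differed from HTA6. HTA7 had 58.7 and 50.4 RPKM in jmj28, 47.2 RPKM as calculated in JMJ28np5-OE, and 51.8 and 55.1 RPKM in WT, with a log2 fold change over JMJ28np5-OE of 0.15 (FDR 0.808, from the authors' deposited table). HTA12 had a calculated mean of 7.48 RPKM in jmj28, 8.47 and 9.74 RPKM in the JMJ28np5-OE libraries, and 7.45 and 7.98 RPKM in WT. It was the histone gene furthest below 0 in jmj28 over JMJ28np5-OE, at -0.34 (FDR 0.276, from the authors' deposited table). The H2B locus AT5G02570, 522 bases long, lies wholly within HTA12 on the other strand. HTA12 was the only one of the 26 genes to share any 75-base stretch with another histone locus of these classes. That count takes in the bases of the nested locus AT5G02570 itself.

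H2A.X, which is phosphorylated at DNA breaks, was measured by HTA3 and HTA5, and the pair diverged. HTA3 (AT1G54690) had 56.3 and 47.9 RPKM in jmj28, 37.6 RPKM as calculated in JMJ28np5-OE, and 47.6 and 47.8 RPKM in WT, and its log2 fold change over JMJ28np5-OE was 0.41 (FDR 0.0458, from the authors' deposited table). HTA5 (AT1G08880) had a calculated mean of 66.9 RPKM in jmj28, 70.3 and 64.5 RPKM in JMJ28np5-OE, and 70.3 and 74.3 RPKM in WT. Its log2 fold change in jmj28 over JMJ28np5-OE was -0.07, with a calculated interval of -0.26 to 0.11. The upper bound lay below the interval of HTA3, which began at 0.14, and the difference between the genes was not tested itself.

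H2A.Z, the variant placed at gene starts, was measured by HTA8, HTA9, H2AV (HTA11 in RefSeq) and HTA4 and gave 0 calls in each comparison. HTA9 (AT1G52740) was the most abundant, with 105 and 95.6 RPKM in jmj28, 91.9 RPKM as calculated in JMJ28np5-OE, and 101 and 100 RPKM in WT. The log2 fold change over JMJ28np5-OE was 0.07 with a calculated interval of -0.11 to 0.25. H2AV had 35.1 and 25.8 RPKM in jmj28, 22.8 RPKM as calculated in JMJ28np5-OE, and 28.3 and 28.1 RPKM in WT, with a log2 fold change of 0.36 (FDR 0.191, from the authors' deposited table). The jmj28 libraries of HTA8 differed most, at 15.7 and 9.40 RPKM, against 11.8 and 9.09 RPKM in WT, and its log2 fold change over JMJ28np5-OE of 0.41 gave no call (FDR 0.495). HTA4 held 9 reads in each jmj28 library, against 19 and 6 reads in WT, and no difference was detectable at that depth.

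**Figure D3:**
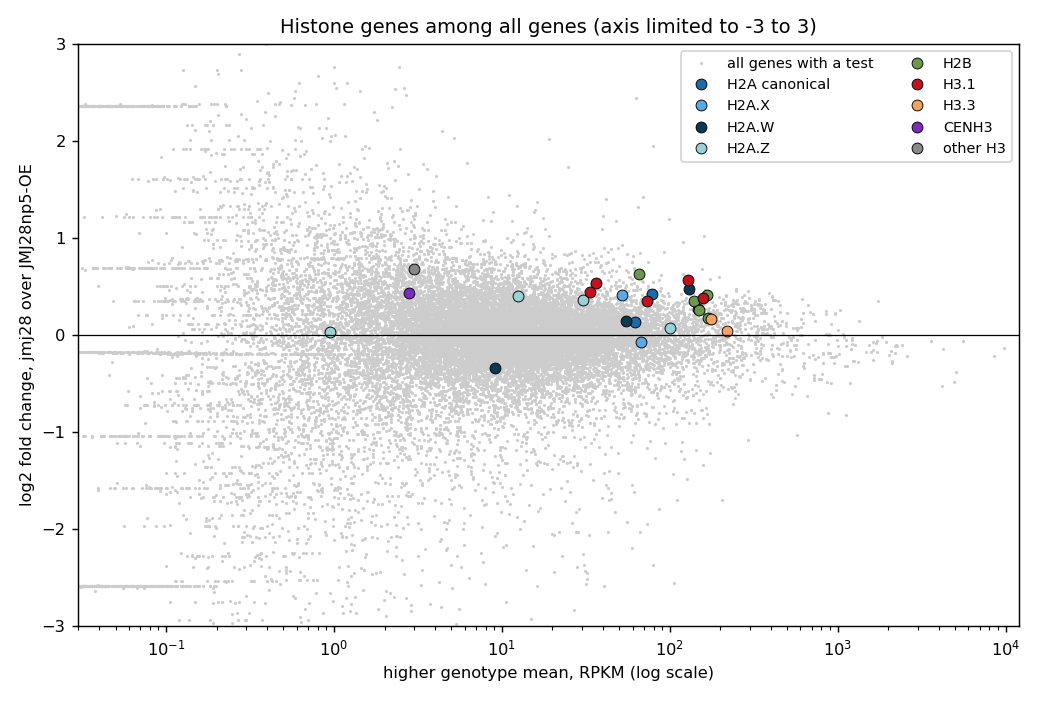
Log2 fold change in jmj28 over JMJ28np5-OE against the higher genotype mean (RPKM, log scale) for all genes with a test (grey) and the 26 histone genes (coloured by class), with the vertical axis limited to -3 to 3. The H3.1 and H2B genes lie above 0 at levels above 30 RPKM, and the H3.3 genes lie closer to 0 and further right, with HTR4_1 at 0.04.

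The libraries of a genotype did not carry histone transcripts alike. Of the 21 histone genes above 5 RPKM with recovered jmj28 libraries, 19 were higher in the deeper jmj28 library, with a median log2 ratio of deeper over shallower of 0.18, against 0.03 over all genes at that level. In WT, 4 of 23 were higher in the deeper library, with a median of -0.07 against -0.02 over all genes. The ratio over all genes had an SD of 0.18 in both genotypes. In jmj28 over WT the median of the 24 genes with recovered jmj28 libraries was 0.08, and 0.01 without the deeper one. In jmj28 over JMJ28np5-OE, 24 of these 24 lay above 0, and 21 did so without the deeper jmj28 library, with a median of 0.22 in place of 0.37. The 10 called values stayed between 0.23 and 0.72 when either jmj28 library was left out, and 0 changed sign. The JMJ28np5-OE libraries were recovered for only 3 histone genes and for none of the called ones, so a value without either of them could not be given. Over all genes above 5 RPKM that could be recovered, the JMJ28np5-OE libraries differed more, with an SD of 0.27.

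Of the 23 histone genes with both libraries recovered in jmj28 and WT, both jmj28 libraries lay above both WT libraries for 10 and below for 0. The same held for 39.9% and 6.36% of all genes above 5 RPKM recovered in these genotypes, close to the 43.5% of the histone genes, and for 33.4% and 6.34% with no limit on level. The genes recovered in both are those with JMJ28np5-OE lowest.

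Genes without introns made up the larger part of the calls. The 11 histone genes with 1 exon, which are all H2B and H3.1 genes and HTR11, gave 7 calls in jmj28 over JMJ28np5-OE, with a median of 0.41 on the log2 scale. The 15 genes with more exons, which are all H2A, H3.3 and CENH3 genes, gave 3 calls and a median of 0.16. Class and exon number cannot be told apart in these genes.

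The octamer CGCGGATC, searched on both strands in the 250 bases before the annotated start, was present in 7 of the 26 histone genes. In all 23028 protein-coding genes with a test it was present in 33, or 0.143%. It stood in 3 of 5 H3.1 genes, 2 of 3 canonical H2A genes, HTA6 and HTR4_1, and in 0 of the H2A.X, H2A.Z and H2B genes. HTR1_1 carries it 90 and 19 bases before the start, as its sequence above shows, and HTA6 116 bases before. Of the 10 called genes 4 carry it, and of the 16 others 3 do, including HTR4_1, whose log2 fold change was 0.04. The 2 histone H4 genes with the octamer had a median log2 fold change of -0.03 in jmj28 over JMJ28np5-OE, and the 24 further genes with it had -0.04, with 1 called higher and 4 lower. The 7 histone genes with the octamer had a median of 0.38, near the 0.35 of all 26 histone genes.

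The hexamer ACGTCA was present in 7 of the 26 histone genes and in 8.03% of the protein-coding genes. It stood in 4 of 5 H2B genes, among them HTB1, 31 bases before the start. TATAAA was present in 10 of 26, in 6 of the 10 called genes and 4 of the 16 others, against 46.8% of the protein-coding genes. The nonamer CATCCAACG and the E2F-type motifs TTTCCCGC and TTTGGCGC were found in 0 of these windows. The related letters CTAACGG or CCAACGG, chosen after the sequences were read, stood in 9 of 26 histone genes and in 2.80% of the protein-coding genes, with 4 in the called genes and 5 in the others. CCAACGG and the nonamer have the letters CCAACG in common.

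**Figure D4:**
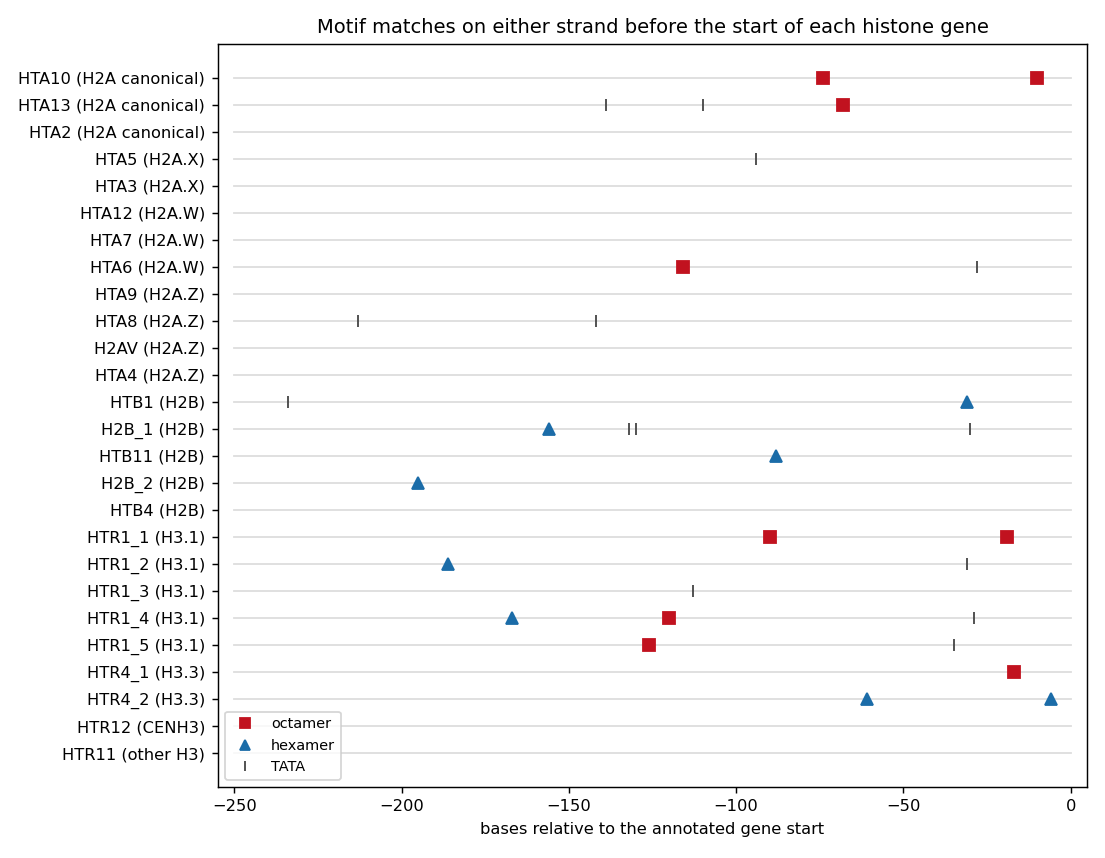
Position of the octamer (squares), the hexamer (triangles) and TATAAA (ticks) on either strand in the 250 bases before the annotated start of each of the 26 histone genes (rows, with class). Squares stand in 7 genes, of which 6 are H3.1, canonical H2A or H2A.W genes and 1 is the H3.3 gene HTR4_1, and triangles stand in 4 of the 5 H2B genes.

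The name rule left out 12 further listed loci of these classes, of which 9 had a test. In jmj28 over JMJ28np5-OE 1 of the 9 was called, the H2B locus AT3G53650, at 6.57 and 6.57 RPKM in jmj28, 3.42 RPKM as calculated in JMJ28np5-OE, and 5.42 and 4.39 RPKM in WT. Its log2 fold change was 0.89 (FDR 0.0255, from the authors' deposited table). The median of the 9 was 0.03. The other H2B loci with a test were AT2G28720, AT2G37470 and AT3G09480, at jmj28 means of 56.2, 32.8 and 3.29 RPKM. In JMJ28np5-OE over WT they had -0.01, -0.145 and -0.27. In jmj28 over JMJ28np5-OE they had 0.03, 0.16 and 0.57 and gave no call. AT4G40030, a further H3.3 locus that starts 42 bases beyond the end of HTR4_1 on the same strand, had a log2 fold change of 0.03 with a calculated interval of -0.14 to 0.20, and so stood near its neighbour. The canonical H2A gene RAT5 had -0.01 (FDR 1.00). The pollen H3 gene MGH3 and the H2B loci AT1G08170 and AT5G02570 had no reads.

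Histone H4, the partner of H3, was also higher in jmj28 than in JMJ28np5-OE at some of its genes. Of its 8 genes 3 were higher and 0 lower in jmj28 than in JMJ28np5-OE, and the list median was 0.32 on the log2 scale. AT3G46320 had 0.71 (FDR 9.43e-05), AT5G59970 had 0.51 (FDR 0.000104) and AT3G53730 had 0.37 (FDR 0.00368), from the authors' deposited table. Of the 8 genes 7 lay above 0 and 1 below. The 1 below was the most abundant, AT5G59690, at a mean of 169 RPKM in JMJ28np5-OE. It had -0.18 in jmj28 over JMJ28np5-OE (FDR 0.273) and 0.16 in JMJ28np5-OE over WT (FDR 0.634), from the authors' deposited table. In JMJ28np5-OE over WT 2 H4 genes fell, AT3G46320 at -0.56 (FDR 0.0119) and AT5G59970 at -0.36 (FDR 0.0321), from the authors' deposited table. The 3 genes of the linker histone H1 gave 0 calls. Of 14 histone chaperone genes 0 were higher and 1 was lower in jmj28 than in JMJ28np5-OE, the nucleosome assembly gene NAP1_5 at -0.31 (FDR 0.0196); over WT in JMJ28np5-OE it had 0.46 (FDR 0.000111) and MSI1, a subunit of the chromatin assembly factor CAF-1, had 0.38 (FDR 0.00981), from the authors' deposited table.

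Genes of DNA replication and mitosis lay on the same side as the histones. Of 10 replication genes 5 were higher and 0 lower in jmj28 than in JMJ28np5-OE. The list median was 0.41 on the log2 scale, and the smallest FDRs were those of RNR1_1, a ribonucleotide reductase gene, at 0.51 (FDR 2.59e-06) and PCNA, the sliding clamp, at 0.68 (FDR 0.000561), from the authors' deposited table. Of 8 mitotic genes 4 were higher and 0 lower, with a median of 0.63, and the smallest FDRs were those of KN, the syntaxin of the cell plate, at 0.83 (FDR 9.81e-07) and CYCB1-2, a mitotic cyclin, at 0.72 (FDR 6.2e-05), from the authors' deposited table. The calls against WT on these lists were RNR1_1 in JMJ28np5-OE, at -0.37 (FDR 0.00511), and CYCB1-2 in jmj28, at 0.53 (FDR 0.025), from the authors' deposited table. The summed level of the replication list was 159 RPKM in jmj28, 113 RPKM in JMJ28np5-OE and 136 RPKM in WT. That of the mitosis list was 114 RPKM in jmj28, 69.7 RPKM in JMJ28np5-OE and 85.6 RPKM in WT. Both JMJ28np5-OE sums hold only means calculated from the fold changes, for 10 and 8 genes, and have no spread.

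Some tissue markers also differed between the genotypes. Of 7 root markers 2 were higher and 0 lower in jmj28 than in JMJ28np5-OE, and their summed level was 59.2 RPKM in jmj28, 38.7 RPKM in JMJ28np5-OE and 39.6 RPKM in WT. The called ones were TIP2-3, a vacuolar aquaporin gene, at 0.82 (FDR 0.00127) and AGP30, an arabinogalactan protein gene, at 0.96 (FDR 0.000437), from the authors' deposited table. Both also rose in jmj28 over WT, where none of the 26 histone genes was called, TIP2-3 by 1.01 (FDR 0.000131) and AGP30 by 0.93 (FDR 0.00169), from the authors' deposited table. PLT1_2 and PLT2_1, which encode PLETHORA factors of the root meristem, had -0.49 (FDR 0.936) and -0.59 (FDR 0.995) in JMJ28np5-OE over WT and gave no call. The called genes made up most of the difference in the root sum between jmj28 and JMJ28np5-OE. TIP2-3 had means of 24.27 and 13.2 RPKM there, and AGP30 had 11.26 and, as calculated, 5.549 RPKM. SCR and SHR, at 12.72 and 8.278 RPKM in jmj28, had only 0.05 and 0.25 over JMJ28np5-OE and gave no call. PLT1_2, PLT2_1 and WOX5 had 0.86, 0.59 and 1.104, without a call, at jmj28 means of 1.322, 0.5794 and 0.7434 RPKM. Of 4 shoot meristem markers 1 was lower in jmj28 than in JMJ28np5-OE, STM at -0.81 (FDR 0.00751), with summed levels of 10.2 RPKM in jmj28, 14.8 RPKM in JMJ28np5-OE and 11.7 RPKM in WT. KNAT1, the most abundant of the 4, had -0.50 (FDR 0.0517, from the authors' deposited table) and just missed the threshold. Its means were 9.23 RPKM in JMJ28np5-OE, 7.40 RPKM in WT and 6.79 RPKM as calculated in jmj28. CLV3 and WUS stood below 0.3 RPKM in every recovered library. Of 3 green leaf markers 1 was lower, LHCB3 at -0.50 (FDR 0.0017), and it rose in JMJ28np5-OE over WT, by 0.53 (FDR 0.00136), both from the authors' deposited table, with summed levels of 10370 RPKM in jmj28, 11180 RPKM in JMJ28np5-OE and 10520 RPKM in WT. RBCS-1A made up most of the green leaf sum, at 9756 RPKM in JMJ28np5-OE, 9448 RPKM in WT and 9250 RPKM as calculated in jmj28. In jmj28 over JMJ28np5-OE it had -0.13 (FDR 0.449, from the authors' deposited table) and LHCB1.1_2 had -0.08, without a call. The sums of the root, shoot meristem and green leaf lists include calculated means. The part of the tissue marker differences in the histone values was not tested.

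**Figure D5:**
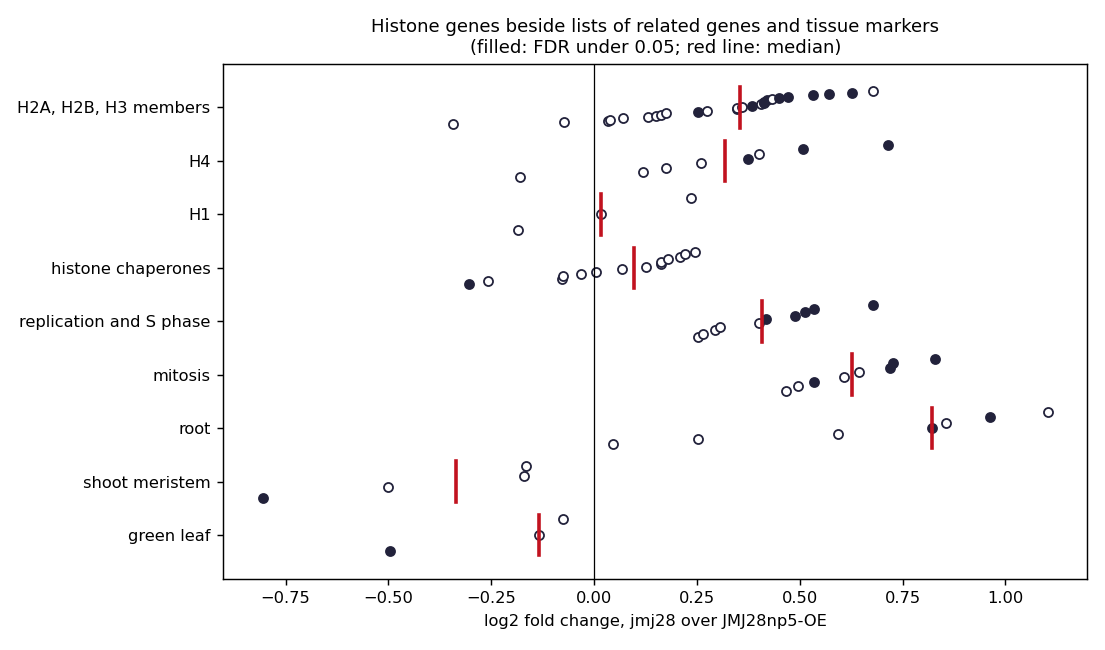
Log2 fold change in jmj28 over JMJ28np5-OE for the 26 histone genes and for lists of related genes and tissue markers (rows), with filled points at an FDR under 0.05 and the median of each list as a red line. The medians are 0.35 for the histones, 0.32 for H4, 0.41 for replication, 0.63 for mitosis and 0.82 for root markers, and shoot meristem and green leaf markers lie below 0. Of the 7 root markers only 2 were called.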

How the data were processed

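The libraries were made with an Illumina TruSeq RNA kit that leaves the strand unmarked and sequenced as paired reads of 150 bases, per the labels' protocols; TAIR10 is named in the submitters' processing notes. Aligner, counting and test are not stated there. Per the file headers, each deposited table gives p-value, FDR and Bonferroni p beside a fold change and its log2 for every gene. The deposited level is the higher genotype mean; its unit, RPKM, is not named and was inferred, since the authors' values times exon length and library total give whole reads (1 solution within a tolerance of 0.01 for 98.9% of 45903 means, more than 1 for 0). On simulated data 23204 of 23204 solutions were the true reads. The exon length of HTR1_3 in the reference gave no solution; 748 bases gave a unique one. The lowest mean is the deposited fold change applied to the others after removing its median offset from ratios of means (0.02 to 0.06, log2). The deposited FDR equals a Benjamini-Hochberg adjustment over all 34262 listed genes, 10720 of them without reads. SEs and intervals assume a two-sided normal test. A count test on the recovered reads was not run: all 4 libraries of jmj28 and WT were recovered for 10837 genes, which are those with JMJ28np5-OE lowest, and fewer in the other pairs. With 2 libraries per genotype, p-values reflect no more than the spread among these libraries, which may be technical, and not always that of the gene itself. In jmj28 over WT the calculated SE was 0.13 for HTA13, at 76.1 and 79.6 RPKM in jmj28 and 64.5 and 67.9 RPKM in WT. It was only 0.09 for HTA6, whose jmj28 libraries lay further apart, at 138 and 122 RPKM, with 112 and 113 RPKM in WT. The histone genes, gene lists and motifs were chosen with earlier results of these data known. Named genes are the called ones, the 3 largest and smallest fold changes per comparison above 1 RPKM and the most abundant gene of each class; the remaining histone genes were named after their values were seen, so that all 26 are shown. Protein sequences were not used here. Python 3.11.15, pandas 2.3.3 and scipy 1.17.1 were used.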

Additional observations from a re-analysis of the deposited data

How the results depend on the processing

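The count of histone genes lower in JMJ28np5-OE than in WT depends on the adjustment: it was 0 with the deposited FDR, 2 with Benjamini-Hochberg over genes with a test, 3 over genes of at least 1 RPKM and 10 at an unadjusted p. In jmj28 over JMJ28np5-OE the 10 higher genes became 1 with the Bonferroni p (HTA6) and 1 with a minimum of 1.5-fold (HTB1), and 1 gene was lower at an unadjusted p; in jmj28 over WT 1 was higher at an unadjusted p. The medians were also taken from recovered means, which both genotypes have for only 2 histone genes in JMJ28np5-OE over WT (0.057 with 1 RPKM and 0.067 with 0.1 RPKM added, against -0.24) and 1 gene in jmj28 over JMJ28np5-OE (0.70 with 0.1 RPKM added, against 0.35), so these values describe those genes alone. Leaving out a library, an alternative added for the medians after seeing the data, gave medians of 0.01 to 0.18 in jmj28 over WT, -0.25 to -0.23 in JMJ28np5-OE over WT and 0.22 to 0.45 in jmj28 over JMJ28np5-OE. No paired analysis was possible because the deposited columns hold genotype comparisons and carry no replicate number. Depth limits HTA4, HTR11 and HTR12, with under 100 reads in each recovered library.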
